A study of Mus musculus with 13 samples.

Results

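Gjb1 and Bcas1 are 2 of the 40787 genes in the count table of sciatic nerves from control and RaptorKO mice. They were chosen by their fitted values, as myelin-related genes with a large positive interaction of genotype and injury, which is the difference between the injury effect in RaptorKO nerves and the injury effect in control nerves. That choice used the values of all 4 groups, so the levels and fold changes of the 2 genes are given as a description, with no test. Both genes passed the filter on low counts, which 12851 genes passed over the 13 libraries. Among those 12851 genes, ordered from the most positive interaction, Bcas1 was number 61 and Gjb1 was number 157.

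RNA was sequenced from whole sciatic nerves of C57BL/6 mice at 5 days post crush (dpc), with 1 library per nerve, from the distal stump of crushed nerves and from uninjured contralateral nerves. All mice were homozygous for floxed Rptor alleles and received tamoxifen injections when 2 months old, and surgery followed 2 months later. Control mice carried no Cre (3 injured and 3 contralateral nerves), and RaptorKO mice carried a tamoxifen-inducible Cre (3 injured and 4 contralateral nerves), used to delete Rptor in adult Schwann cells (SCs). The epineurium was removed, but fibroblasts, macrophages, blood vessels, and perineurial cells remain in such a sample, and a lower level in it can mean fewer SCs or less RNA per SC, which cannot be told apart.

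SCs wrap axons of peripheral nerves in myelin. After a crush, SCs distal to the lesion lose their axons, shut down the myelin genes, and turn into dedifferentiated repair cells. Gjb1 encodes connexin 32, which forms gap junctions within the noncompact regions of the sheath, and mutations of the human gene cause the X-linked form of Charcot-Marie-Tooth disease, a demyelinating neuropathy. Bcas1 encodes a cytoplasmic protein known as a marker of newly myelinating oligodendrocytes, the myelin-forming cells of the CNS, and it is also expressed in SCs. Rptor encodes Raptor, the subunit that defines the kinase complex mTORC1.

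Library totals ranged from 8200458 to 13581775 counts. Levels are given as CPM, counts of a gene relative to the library's total over the 12851 genes that passed the filter on low counts. They are given after TMM scaling, which corrects for differences in RNA composition between libraries. Rptor was at 49.7 ± 4.99 CPM (SD, n = 3) in contralateral controls and at 24.6 ± 2.58 CPM (SD, n = 4) in contralateral RaptorKOs. In injured nerves it was at 42.3 ± 6.83 CPM (SD, n = 3) in controls and at 26.1 ± 2.73 CPM (SD, n = 3) in RaptorKOs, a log2 fold change of -0.68 (SE 0.15, adjusted p = 0.0167 by edgeR's quasi-likelihood test), which was not called without control injured replicate 1, control injured replicate 2, or RaptorKO injured replicate 1. Of the 6 SC lineage markers, none was at 0 in any group. Both libraries of control replicate 3 stood apart by sex-linked transcripts, with 14462 and 15017 counts of Xist against 4 to 17 in the other 11 libraries, and values without these libraries are given where they bear on Gjb1, which lies on the X chromosome.

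Gjb1 (ENSMUSG00000047797) lies on the plus strand of chromosome X, from 101376378 to 101385629 in GRCm38. Its protein-coding sequence is held by 1 exon, from 101384168 to 101385016, and the 3 annotated transcripts differ in where they start. Bcas1 (ENSMUSG00000013523) lies on the minus strand of chromosome 2, from 170346991 to 170427845, with 9 annotated transcripts of which 4 are coding. Counts were made per gene, so neither the starts of Gjb1 nor the splice forms of Bcas1 were separated. RefSeq lists 4 starts of Gjb1 on GRCm38.p6, and the transcript made in nerve is known to begin at a start close to the coding exon. The 250 bases before the start nearest to that exon, which lies 436 bases ahead of it, are shown because Sox10 and Egr2, known activators of Gjb1 in SCs, are compared with it here. Capitals mark 2 short SOX-type motifs, ACAAAG, 57 bases before the start, and ATTGT, 46 bases before it. The window of the first start also held both, 176 and 135 bases before that start, and the window of the second held ATTGT, 76 bases before it.

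Gjb1 upstream of the start nearest the coding exon, plus strand, chrX:101383482-101383731: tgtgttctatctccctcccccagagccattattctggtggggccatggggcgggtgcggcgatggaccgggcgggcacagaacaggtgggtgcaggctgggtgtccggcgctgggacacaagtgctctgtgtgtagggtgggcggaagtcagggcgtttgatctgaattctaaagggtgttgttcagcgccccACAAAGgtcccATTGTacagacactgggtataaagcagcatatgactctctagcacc

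The letters ACAAAG, searched on both strands, were present in 16.5% of 32851 windows of this length upstream of RefSeq starts, and ACAAT, whose reverse complement is ATTGT, in 27.7%. The EGR-type motif GCGNGGGNG, present in 10.5% of windows, and the AP-1 motif TGANTCA, present in 6.75%, were not found in the windows of any of the 4 Gjb1 starts. These matches describe the letters and do not show binding.

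Gjb1 was not merely kept in injured RaptorKO nerves but was at its highest there. Contralateral controls held 161, 144, and 134 CPM, from 1759, 1758, and 1370 counts. Injured controls held 90.2, 104, and 91.1 CPM, from 984, 1124, and 927 counts. All 3 injured control libraries were thus below all 3 contralateral ones, which 34.7% of the 12430 genes tested in this comparison also showed. Contralateral RaptorKOs held 114, 130, 114, and 129 CPM, from 1063, 1693, 1193, and 997 counts. Injured RaptorKOs held 190, 213, and 181 CPM, from 2130, 2693, and 1967 counts. The injured RaptorKO libraries were above all 4 contralateral RaptorKO libraries (as for 31.7% of 12515 genes) and above all 3 injured control libraries (as for 11.7% of 12040 genes). The contralateral RaptorKO libraries were below the contralateral control libraries, as for 13.7% of 11878 genes, but here the margin was small, 130 CPM for the highest of the former against 134 CPM for the lowest of the latter.

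Ordered by mean, Gjb1 was lowest in injured controls (94.97 ± 7.41 CPM, SD, n = 3), followed by contralateral RaptorKOs (122 ± 8.84, SD, n = 4), contralateral controls (146 ± 13.4, SD, n = 3), and injured RaptorKOs (194 ± 16.4, SD, n = 3). No neighbours in that order overlapped. Across genotype and injury at once, 30.7% of 12851 genes had all injured controls below all contralateral RaptorKOs, and 35.4% had all injured RaptorKOs above all contralateral controls. Injury left Gjb1 at 64.9% of its contralateral level in controls and at 160% in RaptorKOs. With 1 library left out at a time, these shares ranged from 62.0% to 68.3% in controls and from 152% to 165% in RaptorKOs.

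Bcas1 had a different course and was kept only in part. Contralateral controls held 734, 692, and 711 CPM, from 8032, 8450, and 7253 counts. Injured controls held 51.9, 59.3, and 55.9 CPM, from 566, 644, and 569 counts. Every injured control library was far below every contralateral one, as for 34.7% of all genes. Contralateral RaptorKOs held 709, 770, 659, and 803 CPM, from 6620, 10053, 6882, and 6205 counts. Injured RaptorKOs held 207, 201, and 179 CPM, from 2318, 2551, and 1949 counts. All injured RaptorKO libraries lay above all injured control libraries, as for 11.7% of all genes, and below every contralateral library of either genotype. Of all genes tested, 28.8% had the injured RaptorKO libraries below the contralateral RaptorKO libraries, and 33.1% had them below the contralateral control libraries.

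By mean, Bcas1 rested at 55.7 ± 3.70 CPM (SD, n = 3) in injured controls, 196 ± 14.7 (SD, n = 3) in injured RaptorKOs, 712 ± 21.1 (SD, n = 3) in contralateral controls, and 735 ± 64.0 (SD, n = 4) in contralateral RaptorKOs. Only the last 2 groups overlapped. The share of the contralateral level left after injury was 7.82% in controls (7.57% to 8.09% with 1 library left out) and 26.6% in RaptorKOs (25.7% to 27.8%). Compared per kilobase of exon, which takes out the difference in length, Bcas1 was the more abundant gene in contralateral nerves, at 189 against 85.7 CPM per kilobase for Gjb1 in controls. In injured nerves the order was turned, with Gjb1 at 55.6 against 14.8 CPM per kilobase for Bcas1 in controls and at 114 against 51.9 in RaptorKOs.

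**Figure D1:**
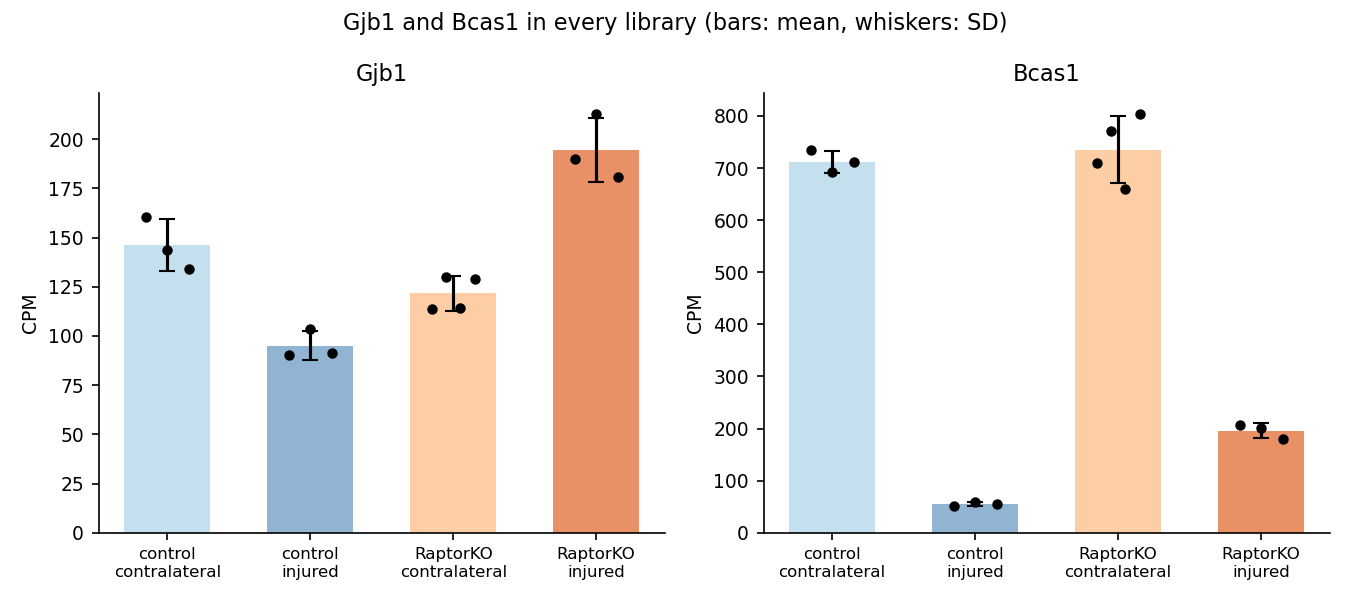
CPM (vertical axis, from 0) of Gjb1 and Bcas1 in each of the 13 libraries. Points are libraries, bars are group means, and whiskers are SD; Gjb1 stands highest in injured RaptorKOs (181 to 213 CPM), whereas Bcas1 stands at 179 to 207 CPM there, between injured controls and the contralateral groups.

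The fold changes of the models fitted to all genes put sizes on these differences. For Gjb1 the log2 fold change between RaptorKO and control nerves was 1.05 (SE 0.11) in injured nerves and -0.25 (SE 0.09) in contralateral nerves. Its log2 injury effect was -0.65 (SE 0.09) in controls and 0.67 (SE 0.10) in RaptorKOs, which gives an interaction of 1.30 (SE 0.14). The injury effect of Gjb1 thus had opposite signs in the 2 genotypes. For Bcas1 the log2 fold change between RaptorKO and control nerves was 1.83 (SE 0.11) in injured nerves, the 20th highest of 12040 genes, and 0.07 (SE 0.09) in contralateral nerves. Its log2 injury effect was -3.70 (SE 0.11) in controls and -1.91 (SE 0.11) in RaptorKOs, with an interaction of 1.77 (SE 0.13). Over all 12851 genes the median interaction was -0.01, and the 95th percentile was 0.70. Comparisons that share libraries are not independent, and the interaction is made from the same 4 groups as the other values.

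The fits also gave the number of genes with such patterns. Of 12200 genes tested in both injury comparisons and the interaction, 7 (0.0574%) were called lower after injury in controls and higher in RaptorKOs, at an adjusted p below 0.05 by edgeR's quasi-likelihood test with a fold change above 1.2. Gjb1 is one of the 7, which follows from the values that chose it and is no further result. The others were Cacna1g, Itga8, Vwf, Atrn, Ccn2, and Fam13c, named after their values were seen. Cacna1g, a T-type calcium channel subunit, had a log2 injury effect of -0.91 in controls and 0.95 in RaptorKOs. Itga8, an integrin subunit, had -1.19 and 0.60, and Ccn2, a matrix-associated protein also known as CTGF, had -0.49 and 0.61. Of the same 12200 genes, 79 (0.648%) were called lower in both genotypes with a positive interaction called, and 19 (0.156%) with a negative interaction called. Bcas1 is one of the 79, again by the values that chose it. Counted again under the alternatives, which was decided after the data were seen, the first pattern held 3 to 15 genes and the second 32 to 140. With the mouse as a block the first held 12 genes, without Fam13c. The first count dropped to 3 without RaptorKO contralateral replicate 1 or RaptorKO injured replicate 2 and to 4 without RaptorKO contralateral replicate 3, and the second to 32 without control contralateral replicate 2.

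The structural genes of compact myelin fell after injury in both genotypes, and no interaction was called among them. Of the 8 genes of the compact myelin list, all 8 were called lower after injury in controls, where 32.9% of all genes were, and 7 in RaptorKOs, where 28.5% were. None of the 8 had an interaction called by edgeR's quasi-likelihood test, against 2.47% of all genes, none by DESeq2, and 2 at an unadjusted p under 0.05. With the mouse as a block a positive interaction was called for 1 of the 8. Their median interaction was 0.09 on the log2 scale against -0.01 for all genes. Mbp, which holds the cytoplasmic faces of the membrane together, was left at 2.77% of its contralateral level in controls and at 2.86% in RaptorKOs, and Pmp22, a dosage-sensitive membrane protein, at 2.14% and 2.12%. The interaction of Mbp was 0.04 (SE 0.17) on the log2 scale.

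Gjb1 belongs with the genes of noncompact myelin, and of the 14 others on that list 13 were called lower after injury in controls and 14 in RaptorKOs. Their median interaction was 0.04 on the log2 scale. A positive interaction was called for 2 of the 14, against 1.07% of all genes, and a negative one for none, against 1.41%. DESeq2 called 3 of the 14, and 7 had an unadjusted p under 0.05. With the mouse as a block a negative interaction was also called for 1, Cadm4, an adhesion molecule of the SC internode (-0.79, SE 0.18, adjusted p = 0.0385). The 2 genes with a positive interaction called, without the block, were Drp2 and Nfasc. Drp2, which links periaxin to the dystroglycan complex at the outer SC membrane, had 0.85 (SE 0.21, adjusted p = 0.0463 by edgeR's quasi-likelihood test). Nfasc, an adhesion molecule of node and paranode, had 0.84 (SE 0.18, adjusted p = 0.0257 by the same test) and was named after its value was seen. Drp2 lost this call under 14 of 19 alternatives and Nfasc under 8 of 19. Even so, Drp2 was left at only 1.11% of its contralateral level in controls and 2.00% in RaptorKOs, and Nfasc at 12.9% and 23.1%, both below the 26.6% of Bcas1. Prx, the periaxin of the same complex, was left at 1.94% and 2.09%, and Cldn19, a claudin of SC tight junctions, at 3.0% and 3.3%. Cdh1, the E-cadherin of autotypic junctions within the sheath, was left at 2.74% and 3.93%, with an interaction of 0.52 (SE 0.18) that was not called. Mag, an adhesion molecule facing the axon, went the other way, with an interaction of -0.65 (SE 0.28) that was not called either.

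**Figure D2:**
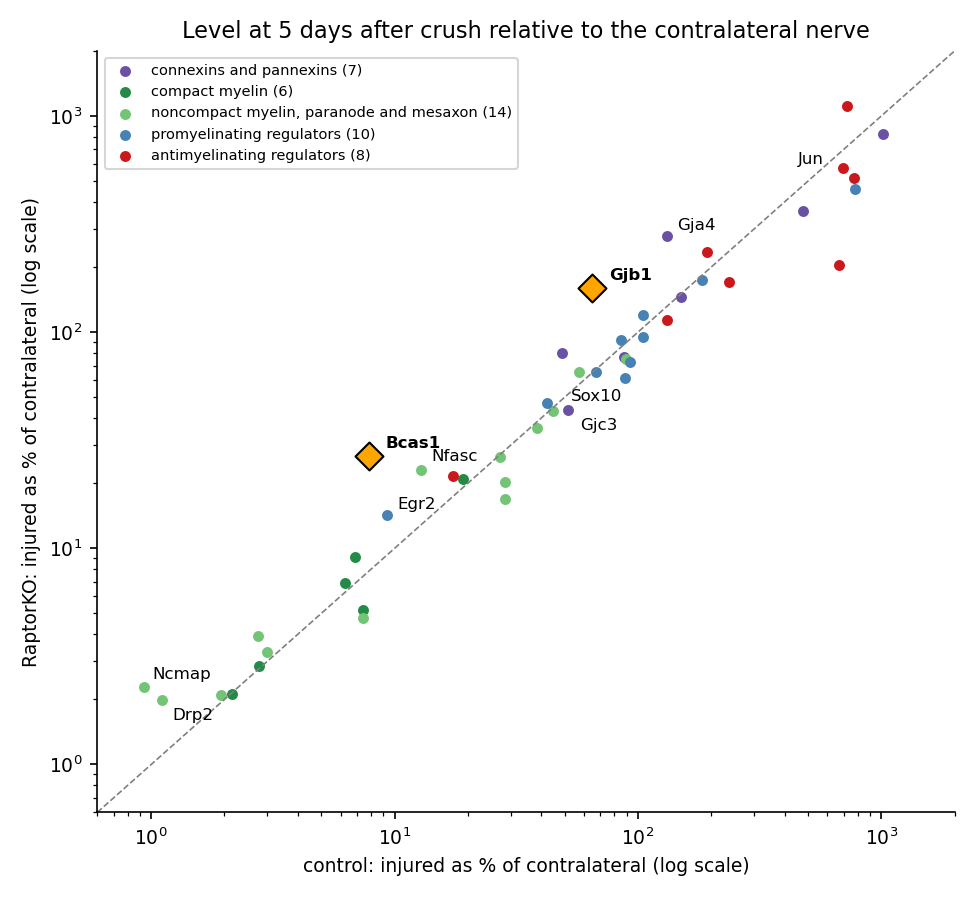
Mean CPM of injured nerves as a percentage of contralateral nerves, in controls (horizontal, log scale) and RaptorKOs (vertical, log scale), for tested genes of 5 lists with a contralateral mean above 1 CPM. On the dashed line both genotypes keep the same share; Gjb1 (64.9% and 160%) and Bcas1 (7.82% and 26.6%), drawn as diamonds, lie above it. Not every gene of the lists is drawn.

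**Figure D3:**
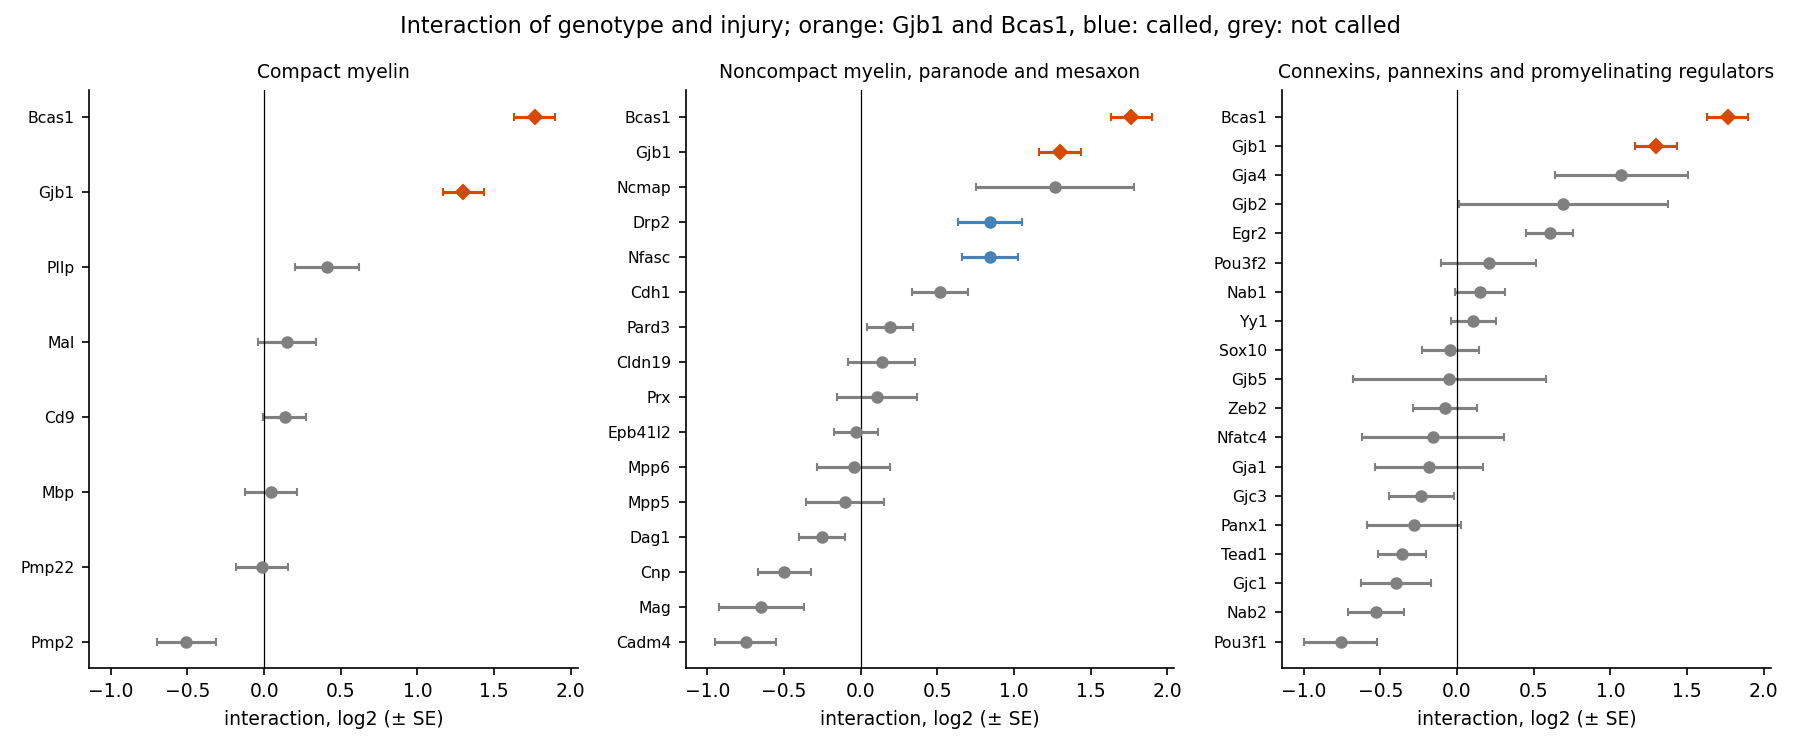
Interaction of genotype and injury on the log2 scale (horizontal) with SE, for the same genes of 4 lists, with Gjb1 (1.30) and Bcas1 (1.77) repeated at the top of each panel in orange; not every gene of the lists is drawn. Blue points, Drp2 and Nfasc, were called; grey points were not.

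No interaction was called for any other connexin. The list of connexins and pannexins, the proteins of gap junctions and related channels, holds 22 genes besides Gjb1, and 8 of them had enough counts to be tested in the interaction. Neither edgeR's quasi-likelihood test nor DESeq2 called an interaction among the 8, and 1 had an unadjusted p under 0.05, with a median interaction of -0.21 on the log2 scale. In injured nerves, 0 of 7 were called higher in RaptorKOs and 1 was called lower, against 4.09% and 4.44% of all genes. That was Gjc3, which encodes connexin 29, the other connexin known from SCs, placed along the inner membrane. Gjc3 was at 97.6 ± 17.6 CPM (SD, n = 3) in injured controls and at 69.0 ± 1.90 (SD, n = 3) in injured RaptorKOs, a log2 fold change of -0.49 (SE 0.14, adjusted p = 0.0484 by edgeR's quasi-likelihood test), which 9 of 14 alternatives did not call. Its share left after injury was 51.5% in controls and 43.8% in RaptorKOs. Gja1, connexin 43, common in fibroblasts and perineurial cells, had an interaction of -0.18 (SE 0.35). Gja4, connexin 37, known from arterial endothelium, had 1.07 (SE 0.43, adjusted p = 0.263 by edgeR's quasi-likelihood test). After injury, Gja5, Gjc1, and Panx1 were called higher in both genotypes and Gja4 in RaptorKOs only, which makes 3 of 7 tested in controls and 4 of 8 in RaptorKOs, against 32.4% and 30.5% of all genes. The difference between the genotypes was not called for any of them. Gja5, Gjb2, and Gjb5 were tested but at low levels, below 10 CPM in every group mean. The injured RaptorKO libraries ranged from 3.93 to 19.1 CPM for Gja5.

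Sox10 and Egr2 encode transcription factors known to switch on myelin genes in SCs, and edgeR's quasi-likelihood test called neither between the genotypes nor in the interaction. Sox10 was left at 67.2% of its contralateral level in controls and at 65.2% in RaptorKOs, with an interaction of -0.04 (SE 0.19). The control share is close to the 64.9% of Gjb1, whereas in RaptorKOs Gjb1 stood at 160%. Egr2 was left at 9.33% and 14.2%, with an interaction of 0.60 (SE 0.16, adjusted p = 0.0562 by edgeR's quasi-likelihood test) that 3 of 19 alternatives called, DESeq2 among them. In contralateral nerves its log2 fold change between RaptorKO and control was -0.36 (SE 0.11), which 4 of 15 alternatives called, DESeq2 among them. The control share of Egr2 is near the 7.82% of Bcas1, and its RaptorKO share is below the 26.6% of Bcas1. Of the 10 promyelinating regulators on the list, edgeR called no interaction, DESeq2 called 2, and 4 had an unadjusted p under 0.05, with a median of -0.06. Pou3f1, a factor of the promyelinating stage, was called higher after injury in both genotypes, with log2 injury effects of 2.93 (SE 0.18) in controls and 2.19 (SE 0.12) in RaptorKOs. Its interaction was -0.76 (SE 0.24, adjusted p = 0.122 by edgeR's quasi-likelihood test), and with the mouse as a block it was called, at -0.70 (adjusted p = 0.0408). Of the 8 tested genes on the list of antimyelinating regulators, none had an interaction called by edgeR or DESeq2, and 3 had an unadjusted p under 0.05, with a median of -0.24. Jun, which encodes c-Jun, the regulator of the repair program, was called higher after injury in both, by 2.78 (SE 0.15) and 2.51 (SE 0.15). Sox2, an inhibitor of myelination, was called higher by 2.83 (SE 0.16) and 3.44 (SE 0.30).

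Bcas1 is best known from oligodendrocytes, and most genes on the list associated with that cell type had few counts in these nerves. Of its 20 genes, 6 had enough counts to be tested in the interaction, none was called by edgeR or DESeq2, and 1 had an unadjusted p under 0.05, with a median interaction of 0.10 on the log2 scale. Mog, Opalin, Gpr17, and Enpp6, markers of the oligodendrocyte lineage, were below 1 CPM in every group mean. Myrf, the myelin regulator of oligodendrocytes, was at 1.82 CPM in contralateral controls and 3.55 CPM in injured RaptorKOs. In contralateral controls, Sirt2 was at 812 CPM, and Tcf7l2, Itpr2, Cldn11, and Tspan2 were at 27.4, 26.0, 13.1, and 11.2 CPM. Nkx6-2 was at 0 CPM there and at 7.28 CPM in injured controls. In injured nerves 5 were tested between the genotypes. Itpr2 was called higher in RaptorKOs (log2 fold change 0.78) and Nkx6-2 lower (-1.63), against 4.09% and 4.44% of all genes. Gjb1 is a gene of demyelinating neuropathy, and of the 15 tested genes on the list of other such genes edgeR called no interaction, DESeq2 called 1, and 2 had an unadjusted p under 0.05, with a median of 0.03. Sh3tc2, an endosomal protein of SCs, was left at 27.7% in controls and 27.4% in RaptorKOs, and Ndrg1, a cytoplasmic protein of SCs, at 11.1% and 12.9%. Litaf, a protein of late endosomes, was called higher after injury in both genotypes, to 204% and 257% of its contralateral level. This list shares Pmp22, Prx, Egr2, and other genes with the lists above.

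Set against other transcripts of the same library, the 2 genes differed in what they followed. As a percentage of Sox10, Gjb1 was at 23.0, 23.2, and 20.9 in contralateral controls, at 21.3, 21.1, and 22.7 in injured controls, and at 22.2, 22.3, 23.7, and 21.9 in contralateral RaptorKOs. In injured RaptorKOs it was at 52.0, 50.9, and 65.4. Over Sox10 the first 3 groups overlapped, and the injured RaptorKO libraries stood apart above all of them. As a percentage of the summed SC lineage markers, Gjb1 was at 3.68 to 4.66 in contralateral controls, 3.65 to 4.31 in injured controls, 5.08 to 6.06 in contralateral RaptorKOs, and 12.02 to 12.34 in injured RaptorKOs. Over these markers both control groups overlapped, and the contralateral RaptorKO libraries already lay above them. Bcas1, as a percentage of Sox10, was at 109 ± 3.62 (SD, n = 3) in contralateral controls, 12.7 ± 1.01 (SD, n = 3) in injured controls, 136 ± 2.29 (SD, n = 4) in contralateral RaptorKOs, and 56.5 ± 8.29 (SD, n = 3) in injured RaptorKOs. These ratios are descriptions, and each shares the chosen gene's values.

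Markers of blood vessels were also higher in injured RaptorKO than injured control nerves. Of 7 endothelial markers, all 7 were called higher in injured RaptorKO than injured control nerves, against 4.09% of all genes, with a median log2 fold change of 0.88. None was called in contralateral nerves by edgeR or DESeq2, and 0 of 7 had an unadjusted p under 0.05. Of all genes, 4.49% were called higher and 5.68% lower there. After injury 4 of the 7 were called lower in controls, against 32.9% of all genes. Against 30.5% and 28.5% of all genes, 3 of the 7 were called higher and 2 lower in RaptorKOs. Their summed level was 245 to 374 CPM in injured controls, 452 to 713 in injured RaptorKOs, 439 to 482 in contralateral controls, and 445 to 550 in contralateral RaptorKOs, and no marker was at 0. A positive interaction was called for 2 of the 7, against 1.07% of all genes, and all 7 interactions were above 0. These 2 were Kdr and Tek, receptors for VEGF and angiopoietins. Kdr kept the call in 8 of 19 alternatives and Tek in 6 of 19. With the mouse as a block 3 of the 7 were called, with Cldn5, a claudin of endothelial junctions, added. Of the 5 pericyte and smooth muscle markers tested in injured nerves, 4 were called higher in RaptorKOs, against 4.09% of all genes. Against 4.49% of all genes, 2 of 6 were called higher in contralateral RaptorKO nerves. Their summed level over 6 markers was 445 to 527 CPM in injured controls and 823 to 1089 in injured RaptorKOs. After injury 5 of the 6 were called lower in controls, against 32.9% of all genes. In RaptorKOs 1 was called higher, Rgs5, and 2 lower, Pdgfrb and Kcnj8, against 30.5% and 28.5% of all genes. Rgs5, a pericyte marker, had log2 injury effects of -0.17 in controls and 1.08 in RaptorKOs and an interaction of 1.23. In RaptorKOs the injury effects were -0.40 for Pdgfrb and -1.47 for Kcnj8. A positive interaction was called for 2 of the 6, against 1.07% of all genes, and all 6 interactions were above 0.

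As a percentage of the summed endothelial markers, Gjb1 was at 31.7 ± 3.45 (SD, n = 3) in contralateral controls, 31.9 ± 6.62 (SD, n = 3) in injured controls, 25.2 ± 4.02 (SD, n = 4) in contralateral RaptorKOs, and 36.1 ± 6.12 (SD, n = 3) in injured RaptorKOs. As a percentage of the pericyte and smooth muscle markers it was at 22.4 ± 3.42, 19.2 ± 1.65, 18.6 ± 3.28, and 21.4 ± 1.78 in the same order. Over the endothelial markers the injured RaptorKO libraries (29.8 to 42.0) overlapped both control groups but lay above the contralateral RaptorKO libraries (20.8 to 29.2). Over the pericyte and smooth muscle markers the injured RaptorKO libraries (19.5 to 23.1) overlapped all 3 other groups. The mean sum of these markers was 662 CPM in contralateral and 918 CPM in injured RaptorKOs, of which Rgs5 held 250 and 529 CPM. That ratio therefore depends largely on Rgs5. Bcas1 was at 154% ± 5.84 (SD, n = 3) of the endothelial markers in contralateral controls, 18.6% ± 3.26 (SD, n = 3) in injured controls, 153% ± 26.3 (SD, n = 4) in contralateral RaptorKOs, and 36.7% ± 8.75 (SD, n = 3) in injured RaptorKOs. Of the 6 SC lineage markers, 3 were called lower and none higher in injured RaptorKO than injured control nerves, against 4.44% and 4.09% of all genes, with a summed level of 1464 to 1769 CPM against 2403 to 2497. In contralateral nerves 4 of the 6 were called lower in RaptorKOs, against 5.68% of all genes, with 1886 to 2483 CPM against 3448 to 3647. The part of vessel cells and SC number in the levels of Gjb1 and Bcas1 was not tested.

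**Figure D4:**
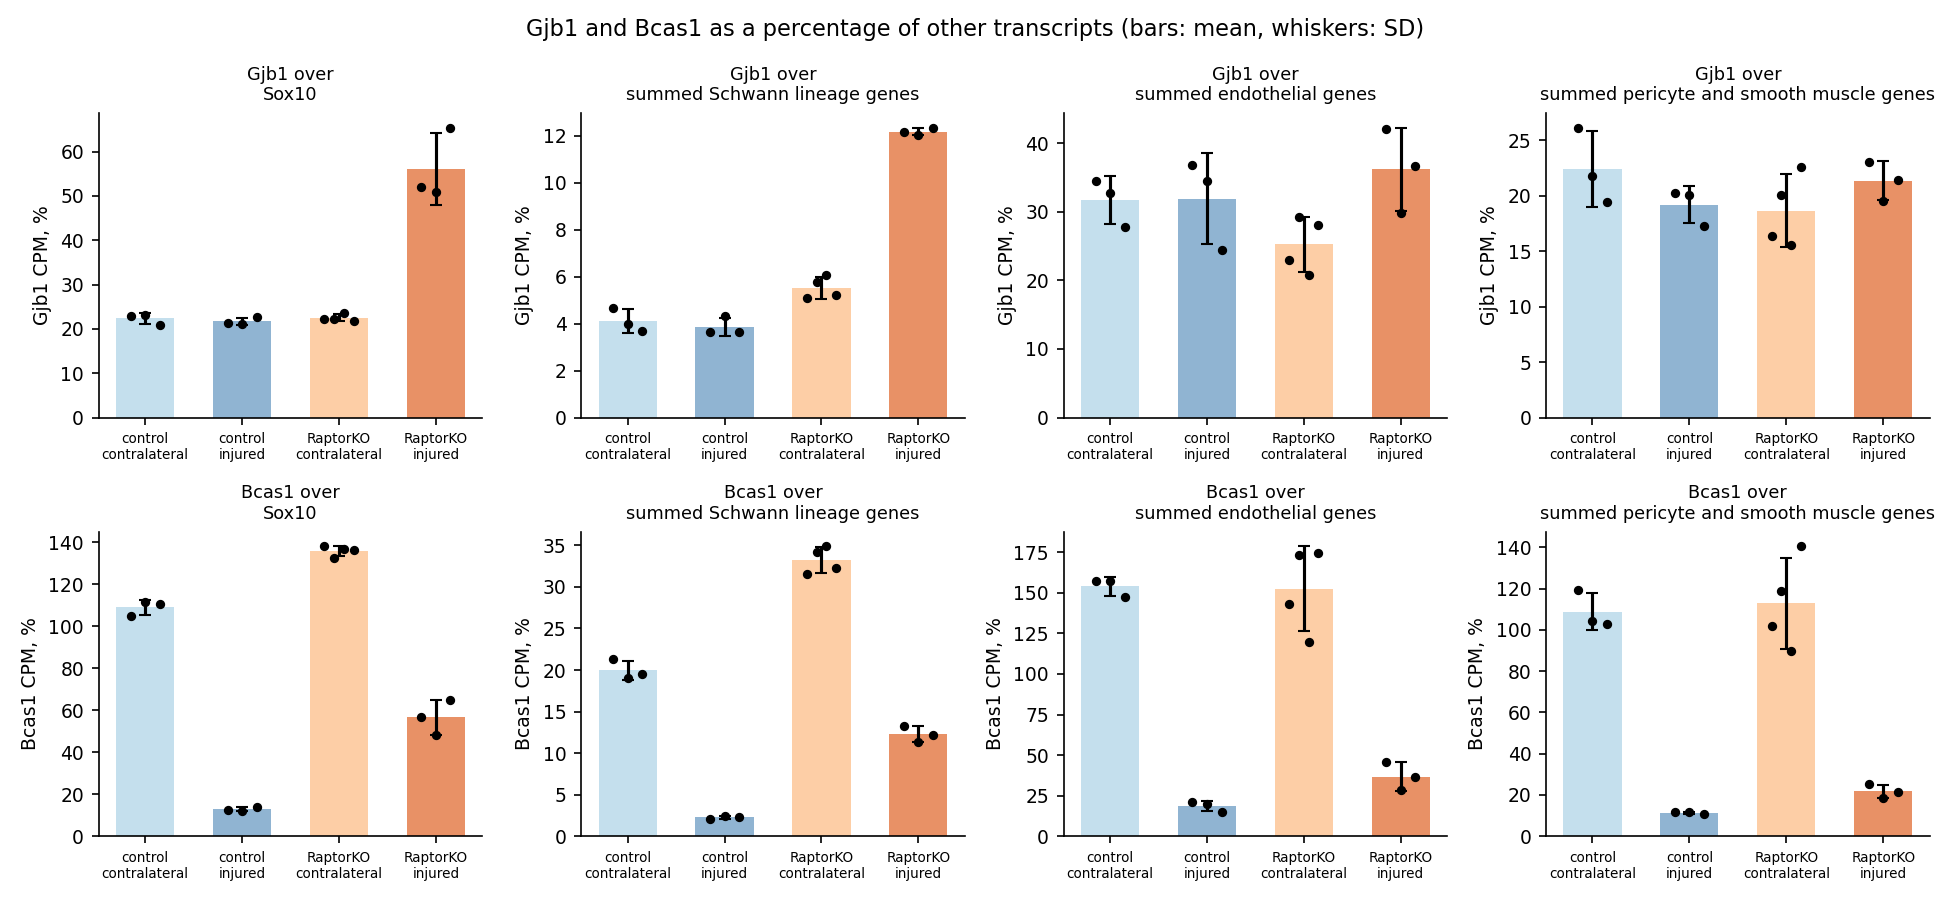
Gjb1 (top) and Bcas1 (bottom) CPM in each library as a percentage (vertical axes, from 0) of Sox10, of the summed SC lineage markers, of the summed endothelial markers, and of the summed pericyte and smooth muscle markers; points are libraries, bars are means, and whiskers are SD. Gjb1 stands apart in injured RaptorKOs over Sox10 (56.1% against 21.7% to 22.5% in the other groups) and overlaps both control groups over the vessel markers.

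The genes whose course was most like that of the 2 genes were found by the distance between log2 CPM values, each centred on the gene's own mean over the 13 libraries, among 12850 genes. For Gjb1 these were Vwf, Mrtfb, Fam13c, Tek, and Rnft2, at distances of 0.68 to 0.81. Vwf, the von Willebrand factor made by endothelium, was at 225 ± 17.5 CPM (SD, n = 3) in contralateral controls, 138 ± 19.7 (SD, n = 3) in injured controls, 228 ± 20.4 (SD, n = 4) in contralateral RaptorKOs, and 298 ± 61.3 (SD, n = 3) in injured RaptorKOs. Its correlation with Gjb1 over the 13 libraries was 0.89 (Pearson), and Tek, an endothelial receptor, had 0.81. For Bcas1 the nearest genes were Nrip2, Hdac11, Rsad2, Clic5, and Car4, at distances of 1.02 to 1.44 and with correlations of 0.97 to 0.99. Hdac11, a histone deacetylase, was at 23.5 ± 2.42 CPM (SD, n = 3) in contralateral controls, 2.80 ± 0.807 (SD, n = 3) in injured controls, 25.9 ± 2.75 (SD, n = 4) in contralateral RaptorKOs, and 6.54 ± 1.18 (SD, n = 3) in injured RaptorKOs. Egr2 was number 88 for Bcas1. The 2 genes were not near each other, with Bcas1 at number 11673 of 12850 for Gjb1 and a correlation of 0.33. The libraries of a group share their condition, so these values describe the 4 groups more than 13 separate points.

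**Figure D5:**
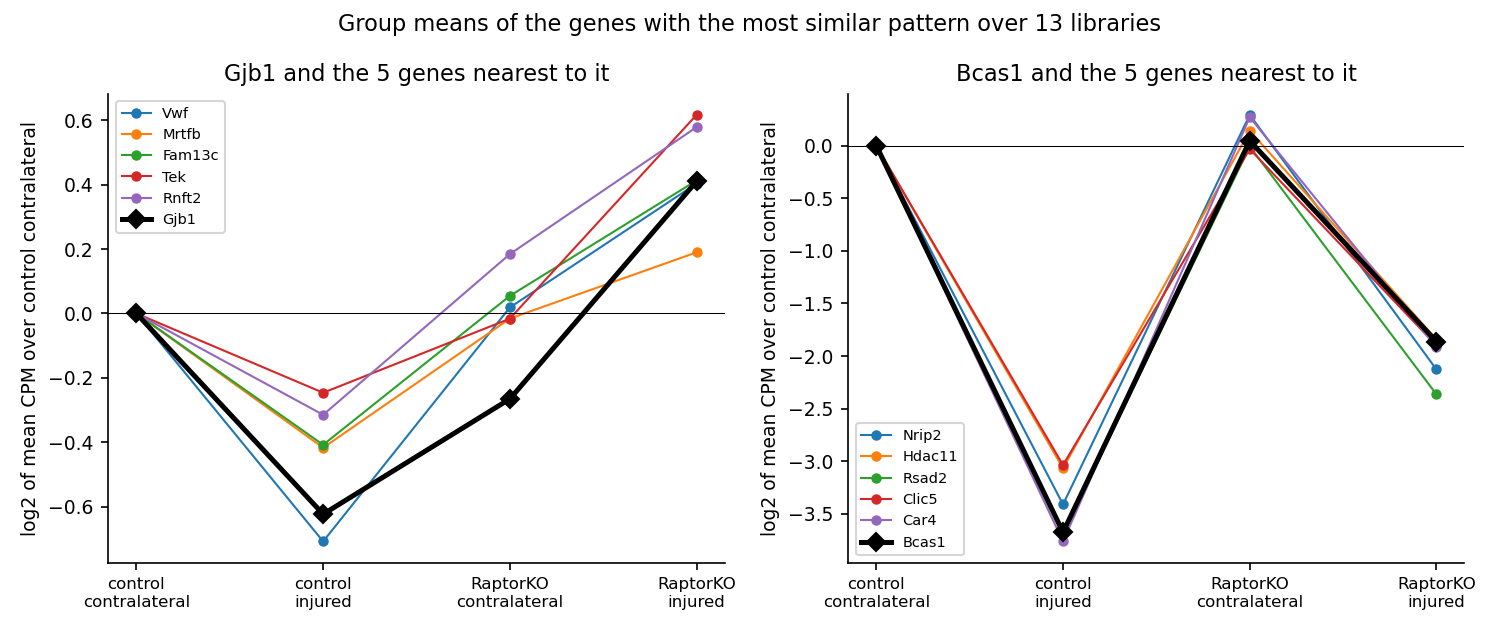
Log2 of the group mean CPM over that of contralateral controls (vertical axes) for Gjb1 and Bcas1 (black diamonds) and the 5 genes nearest to each. Gjb1 and its nearest genes are lowest in injured controls and highest in injured RaptorKOs; Bcas1 and its nearest genes lie below 0 in injured nerves of both genotypes, more so in controls.

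No interaction was called for the neighbours of the 2 genes on their chromosomes. Nlgn3, the tested gene before Gjb1, had an interaction of -0.64 (SE 0.42), and Zmym3, the one after it, 0.23 (SE 0.19). On either side of Bcas1, Zfp217 had 0.27 (SE 0.19) and Pfdn4 0.25 (SE 0.26), with adjusted p-values of 0.557 to 0.767 over the 4 genes by edgeR's quasi-likelihood test. The genes Bcas1os1 and Bcas1os2 lie within Bcas1 on the opposite strand and held at most 2 and 1 counts in any library. Without both libraries of control replicate 3, the interaction was 1.33 for Gjb1 and 1.77 for Bcas1, and Gjb1 was left at 63.6% in controls and Bcas1 at 7.80%. In those libraries Gjb1 was at 134 CPM in the contralateral and 91.1 CPM in the injured nerve, against 144 to 161 and 90.2 to 104 CPM in the other controls.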

How the data were processed

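The authors trimmed reads with Trimmomatic, aligned them to GRCm38, and deposited RSEM 1.2.22 expected counts per gene, which divide reads shared between genes. The methods name a stranded kit, but whether counting used strand is not given in the sources used here. Expected counts were rounded to whole numbers, and all columns were used. Genes were named from GENCODE M21. Groups were taken from the labels. Analysis used R 4.3.3, edgeR 4.0.16, DESeq2 1.42.0, Python 3.11.15, and matplotlib 3.10.9. Genes with at least 50 counts in 2 libraries of a comparison were tested with edgeR's quasi-likelihood test after TMM scaling, and called at a Benjamini-Hochberg adjusted p below 0.05 and a fold change above 1.2. Comparisons of 2 groups used their libraries only, and the interaction used all 13. Alternatives were DESeq2, other scalings, no filter, edgeR's exact test (the test of the study), 1 joint fit, a replicate block, and libraries left out. The tests were tried on simulated counts. Each SE of a log2 fold change or interaction was derived from the test, as the size of the unshrunk coefficient over the square root of the F statistic. Log2 CPM used a prior count of 2. Upstream sequences are from RefSeq (GRCm38.p6).

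Gjb1, Bcas1, and the gene lists were chosen with earlier results of these data known. Genes named are the 2 genes, a set list of myelin, connexin, and SC genes, other tested connexins, the 5 nearest in pattern, and chromosomal neighbours. Within a genotype, equal replicate numbers were taken to mark both nerves of 1 mouse, since the labels number injured and contralateral nerves alike and the methods describe a unilateral crush. Deviations of such pairs from their group means correlated at 0.07, 0.13, and 0.30 in controls and at -0.02, 0.21, and 0.17 in RaptorKOs. As in the study, the tests had no block, and p-values treat libraries as independent; values with the mouse as a block are given where a call changed. Some genes of the lists are counted but not reported here by name.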

Additional observations from a re-analysis of the deposited data

Results flagged for a closer look

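In contralateral RaptorKO nerves, 1 of 4 libraries lay far above the other 3 for Gjc3 (208 CPM), and 1 lay far below for S100b (369 CPM). Only groups of at least 4 libraries were looked at, and contralateral RaptorKO was the only such group. Chance alone singles out about 1 in 20 groups in this way, and 37 were looked at, 1 for each named gene.

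The injury effect differed between the genotypes for some genes other than Gjb1 and Bcas1. Drp2 had an interaction of 0.85 on the log2 scale, with 1.11% of the contralateral level left in controls and 2.00% in RaptorKOs. Among the genes picked for a course like that of Gjb1, so that a positive value follows in part from the choice, the interaction was 1.09 for Vwf, 0.62 for Mrtfb, and 0.88 for Tek. For Clic5, picked for its likeness to Bcas1, it was 1.16. Under the 19 alternatives the interaction was called 19 times for Vwf, 7 times for Mrtfb, 6 times for Tek, 11 times for Clic5 (not with the mouse as a block), and 5 times for Drp2.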

How the results depend on the processing

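No value of Gjb1 or Bcas1 changed sign under any alternative run. Their interactions ranged from 1.23 to 1.36 and from 1.71 to 1.82 over 19 alternatives. Scaling by library totals moved the median of all genes after injury from 0.00 to 0.20 in controls and from 0.03 to 0.19 in RaptorKOs, raised the share of calls that were higher from 49.7% to 61.7% and from 51.7% to 62.4%, and put Gjb1 at 73.3% and 178% of its contralateral level in controls and RaptorKOs and Bcas1 at 8.83% in controls. The calls over all genes moved more. RaptorKO against control gave 493 higher and 535 lower calls in injured nerves, 856 higher with no filter, 322 and 350 without both libraries of control replicate 3, and 176 to 484 and 271 to 515 with 1 library left out. In contralateral nerves the 533 and 675 calls became 299 and 370 without control replicate 3, and 246 to 598 and 278 to 820 with 1 left out. The 137 and 181 interaction calls became 245 and 353 with DESeq2, 51 and 62 without control replicate 3, and 54 to 124 and 78 to 163 with 1 left out. With 1 library left out, the lowest counts came without control injured replicate 2 in injured nerves and without control contralateral replicate 2 in contralateral nerves and the interaction. The causes were not tested. With the mouse as a replicate block, the interactions were 1.33 for Gjb1 and 1.81 for Bcas1, and of the injury and interaction calls given for genes and lists none changed beyond those noted beside them. Between genotypes equal numbers mark different mice, and a replicate block there gave 881 higher calls in contralateral nerves.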

Other observations

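Markers of other cells of the nerve are given here as values. Macrophage markers were called higher after injury in both genotypes for 10 of 10, against 32.4% of all genes in controls and 30.5% in RaptorKOs, and higher in RaptorKOs for 6 of 9 tested in contralateral nerves, against 4.49% of all genes, with a summed level of 187 to 211 CPM in contralateral controls, 3154 to 3935 in injured controls, 309 to 380 in contralateral RaptorKOs, and 2171 to 4386 in injured RaptorKOs. Fibroblast markers were called higher in RaptorKOs for 4 of 5 in contralateral and 2 of 5 in injured nerves, against 4.49% and 4.09% of all genes. All 5 perineurial markers were called lower after injury in both genotypes, against 32.9% of all genes in controls and 28.5% in RaptorKOs. Mast cell markers were called higher in injured RaptorKOs for 4 of 5, against 4.09% of all genes, with a median log2 fold change of 2.33. In contralateral RaptorKOs 2 of 5 were called higher, against 4.49% of all genes, with a median of 2.10. No interaction was called for any of the 5. DESeq2 called 1 of 5 in injured and 0 of 5 in contralateral nerves. Of 5 markers of nonmyelinating or immature SCs, 3 had a negative interaction called, against 1.41% of all genes, and 2 with the mouse as a block. Skeletal muscle markers summed to at most 1.05 CPM in any library, and adipocyte markers to 122 CPM in 1 contralateral RaptorKO library.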
